A study of Mus musculus with 12 samples.

Results

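The autophagy genes described here are the 36 genes of the deposited gene table whose symbols read Atg plus a number, together with Ulk1, Ulk2, Becn1, Map1lc3a, Map1lc3b, Gabarap, Gabarapl1, Gabarapl2, Sqstm1, Optn, Nbr1, Tfeb, Wipi1, Wipi2, Rb1cc1, Pik3c3, Uvrag and Ambra1. They were taken by symbol from 55487 genes by a rule that uses no expression value, although earlier results of these data were known when the genes were chosen. All 36 passed the filter on low values, a mean above 1 FPKM (fragments scaled by transcript length and by the size of the library) in some group, which 16471 genes passed.

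The RNA-seq covered whole mouse retinas in 12 libraries, 2 for each of 6 groups, and addressed how the retina responds to excitotoxic injury when the transcription factor PAX6 or the kinase JNK3 is reduced. The mice were C57BL/6J wild types or Jnk3-/- mice, and every eye received an intravitreal injection of 1 μL, either of PBS or of 40 mM NMDA (40 nmol), a glutamate receptor agonist that kills retinal ganglion cells (RGCs). WT (B6J) retinas carried no virus. The shPax6 retinas were from WT mice infected at 2 months of age with AAV2.7m8 carrying pU6-shPax6-GFP, in which the U6 promoter drives a hairpin against Pax6 in every cell type the virus enters. JNK3 KO retinas lacked JNK3, the product of Mapk10, in all cells of the animal. No library of the scrambled hairpin vector is among the 12, so infection and Pax6 knockdown cannot be told apart. The labels give more than 3 retinas per extraction and do not say whether the 2 libraries of a group came from separate animals, so the p-values measure the spread between these libraries, which may be technical. The time between injection and collection is given neither in the labels nor in the methods text used here.

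Autophagy wraps cytoplasm, protein aggregates or damaged mitochondria in a double membrane, the autophagosome, and delivers them to the lysosome. A kinase complex around ULK1 or ULK2 starts the membrane, a class III PI3-kinase complex with Beclin 1 marks it with a lipid that WIPI proteins bind, ATG2 and ATG9 proteins supply lipid, and 2 ubiquitin-like conjugation systems attach ATG8 proteins (LC3 and GABARAP) to it, where cargo receptors such as p62 dock. Neurons of the retina depend on this turnover under basal conditions, and TFEB, a transcription factor that moves to the nucleus under starvation or lysosomal stress, activates many autophagy and lysosome genes. A transcript level does not measure how much material passes through the pathway.

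The label checks came first. In the PBS libraries Pax6 read 173.48 and 177.3 FPKM for WT against 94.56 and 92.84 for shPax6, and Mapk10 read 42.79 and 50.72 FPKM for WT against 9.47 and 8.75 for JNK3 KO. After NMDA in WT both targets were themselves low, Pax6 at 55.42 and 53.81 FPKM and Mapk10 at 8.98 and 6.0 FPKM, so neither gene separates the NMDA groups in this way. The WT NMDA libraries stood apart from the other 10: their FPKM summed over all genes to 805627 and 820180, against 541210 to 576922 elsewhere, and their change from PBS followed transcript length across all genes. The levels of other cells moved as well. Summed over 6 neutrophil markers, FPKM went from 206.18 and 229.35 to 1940.51 and 1980.15 in WT, stood at 5.87 and 4.89 and then 63.68 and 71.01 in shPax6, and went from 149.56 and 162.09 to 12.71 and 13.58 in JNK3 KO. Of those markers, Mpo lay between 0 and 0.22 FPKM in every library and Ly6g was listed at 0 in every shPax6 library. Of the 5 that passed the filter, 4 were higher and 0 lower after NMDA in WT and in shPax6. In JNK3 KO 0 were higher and 3 lower. Csf3r did not rise in WT, at 18.16 and 18.9 FPKM in PBS and 16.98 and 14.15 after NMDA. Summed over 10 microglia and macrophage markers, FPKM went from 200.84 and 219.01 to 444.54 and 428.12 in WT, from 193.72 and 178.8 to 808 and 806.33 in shPax6 and from 197.9 and 184.82 to 143.99 and 135.42 in JNK3 KO. Of those 10 markers 6 were higher and 3 lower after NMDA in WT, 8 higher and 0 lower in shPax6, and 1 higher and 5 lower in JNK3 KO. Of 6 amacrine markers 6 were lower in WT and in shPax6, and 1 in JNK3 KO. Of 5 Mueller glia markers 1 was higher and 4 lower in WT, 2 and 1 in shPax6, and 3 and 1 in JNK3 KO. Beside these marker counts, 26% of all genes were higher and 33.8% lower in WT, 19.1% and 11% in shPax6, and 4.33% and 6.1% in JNK3 KO. The summed level of 10 RGC markers was lower after NMDA in each genotype. The part these shifts have in the results below was not tested, and in whole retina fewer cells of a type and less RNA per cell cannot be told apart.

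In WT retinas 22 of the 36 genes changed after NMDA, 9 higher (26% of all genes were) and 13 lower (33.8%), at a Benjamini-Hochberg adjusted p under 0.05 (limma over 16471 genes). That share, 61.1%, sat beside 59.8% of all genes tested, so in FPKM autophagy genes changed about as often as genes in general. How the 36 compared with all genes depended on the scaling. With libraries scaled to the same sum (TPM) 4 were higher and 26 lower, where 63.9% of all genes were called. With a correction for transcript length 12 were higher and 9 lower, where 45.9% of all genes were called. In shPax6 retinas 7 changed, 19.4% against 30.2% of all genes, with 5 higher (19.1% of all genes) and 2 lower (11%). That balance turned to 3 higher and 11 lower with libraries scaled to their 75th percentile (29.9% of all genes called) or quantile normalized (30.1%). It was 3 and 9 with the length correction (28.9%) and 4 and 5 under TPM (29.2%). The smaller share of the 36 in FPKM was thus not kept at the 75th percentile or with quantile normalization. In JNK3 KO retinas 5 changed, 13.9% against 10.4% of all genes, with 1 higher (4.33%) and 4 lower (6.1%). Past an absolute log2 difference of 1, the counts were 6 in WT, where 35.1% of all genes passed, and 0 in both other genotypes, where 13.6% and 2.65% passed. The median log2 difference of the 36 was -0.18 in WT, -0.10 in shPax6 and -0.11 in JNK3 KO, beside -0.09, 0.10 and -0.01 for all genes. Only Wipi1 was called in all 3 genotypes, 14 genes were called in WT and in neither other genotype, and 12 in none. The shares of all genes with these patterns were not computed. Of all genes 59.8%, 30.2% and 10.4% were called in WT, shPax6 and JNK3 KO, so no trait particular to autophagy genes is read from these counts. The responses themselves differed between WT and shPax6 in 18 of the 36, where 49.7% of all genes did. The WT response was the higher in 8 of them (18.3% of all genes) and the lower in 10 (31.4%), and 7 differed by more than 1 (32%). Between WT and JNK3 KO 19 differed, beside 51.4% of all genes, with WT higher in 10 (23.5%) and lower in 9 (27.9%), and 7 past 1 (35.6%). Both balances depended on the scaling. Under TPM 2 were higher and 20 lower against shPax6 (56.4% of all genes called) and 4 and 21 against JNK3 KO (55.1%). At the 75th percentile they were 9 and 5 (48.1%) and then 12 and 5 (51.5%). With quantile normalization they were 4 and 9 (42.8%) and then 7 and 9 (48.1%). With the length correction they were 10 and 5 (36.2%) and then 13 and 4 (34.2%). The differences from both genotypes rest on the same 4 WT libraries.

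**Figure D1:**
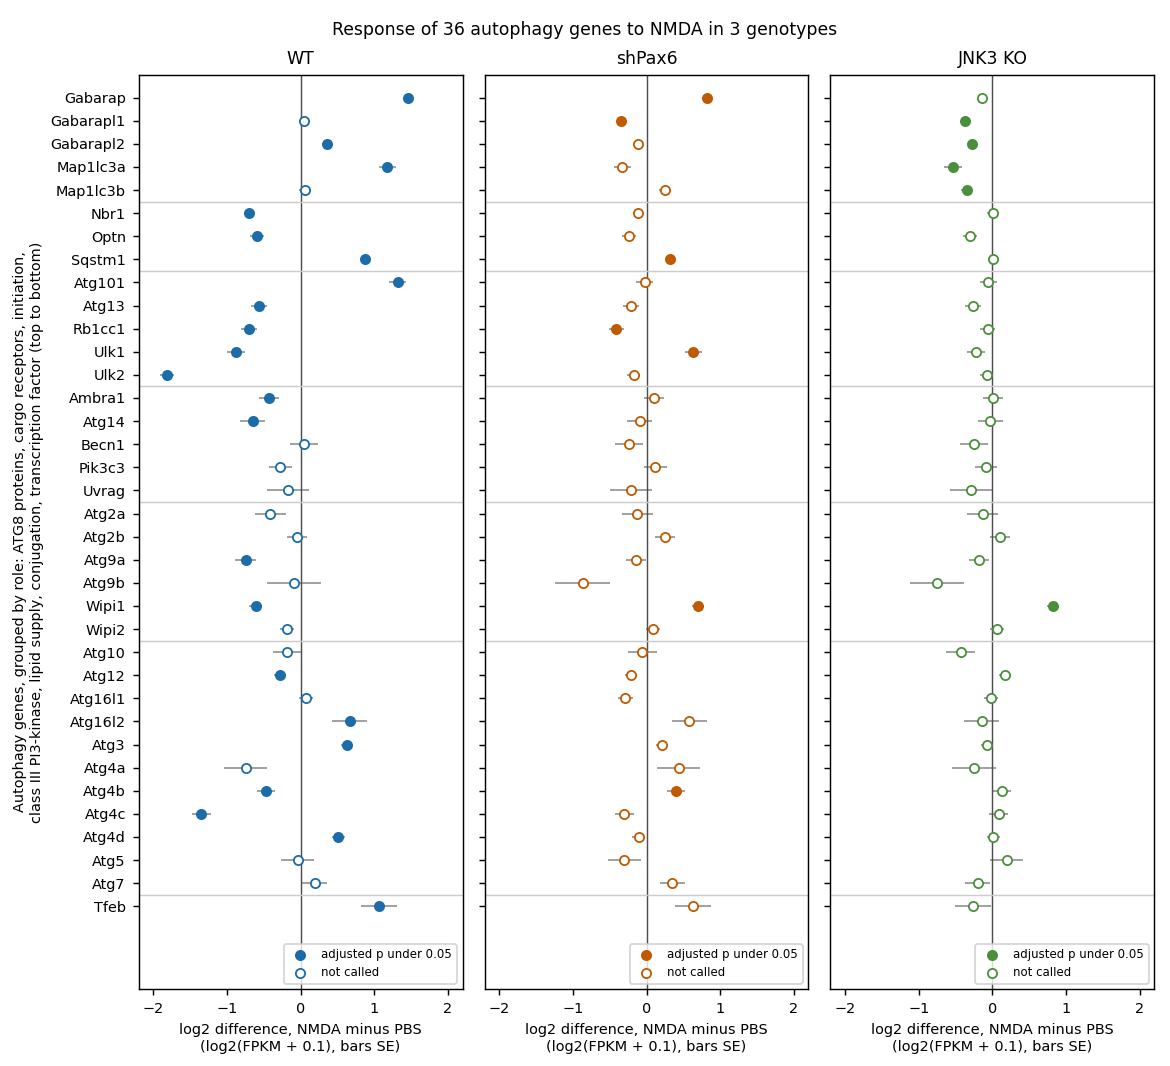
Difference between NMDA and PBS for each of the 36 autophagy genes in WT, shPax6 and JNK3 KO retinas, on the log2(FPKM + 0.1) scale, with bars for the standard error (2 libraries per group) and filled points for an adjusted p under 0.05. WT holds 22 filled points spread from -1.81 (Ulk2) to 1.46 (Gabarap), whereas shPax6 holds 7 and JNK3 KO holds 5.

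The WT changes sorted by transcript length. For each gene the length is the mean length of its spliced transcripts weighted by their FPKM, and the 36 genes ran from 902 bases (Map1lc3a) to 5440 bases (Atg2a). Of the 12 genes shorter than 2 kb, 8 were higher after NMDA in WT and 0 were lower. Of the 24 longer ones, 1 was higher (Atg3) and 13 were lower. All genes moved the same way, with WT medians of 1.03 under 1 kb and 0.525 at 1 to 2 kb. The medians were -0.322 at 2 to 4 kb and -1.173 over 4 kb. The shares of all genes called in these length classes were not computed, so no trait particular to autophagy genes is read from this split. Across the 36 genes Spearman's rho between length and the WT log2 difference was -0.68, beside -0.56 across 16451 genes tested with a known length. In shPax6 the same rho was -0.08 for the 36 and -0.17 for all genes, and in JNK3 KO it was 0.38 and 0.23. These are relations across genes of the same libraries, and genes are not independent replicates. A correction of each library for its own trend on length left 21 genes called in WT, but 12 higher and 9 lower, and kept 10 of the original 22 calls in their direction. Rescaling every library to the same sum (TPM) moved the median of all genes in WT from -0.09 to -0.66 and gave 4 higher and 26 lower autophagy genes. Scaling to the 75th percentile gave 12 higher and 10 lower (60% of all genes called), and quantile normalization gave 8 and 13 (57.5%). Under all 4 of these scalings 6 WT calls kept their direction: Gabarap and Atg101 higher, and Ulk2, Atg4c, Wipi1 and Optn lower. The length relation bears on every WT value below, so the value with the length correction is given beside most of the WT calls.

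**Figure D2:**
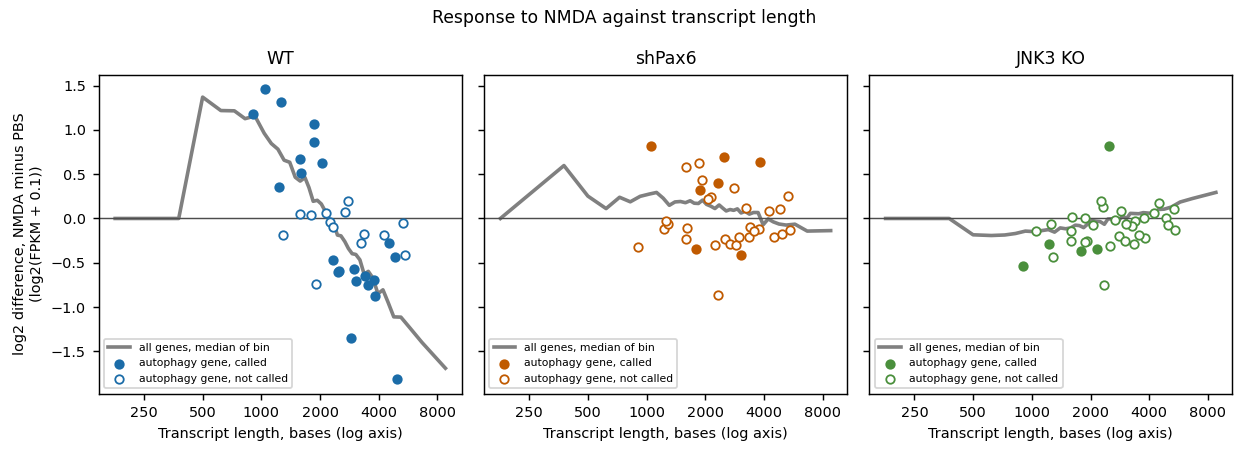
Difference between NMDA and PBS on the log2(FPKM + 0.1) scale against spliced transcript length (log axis) for the 36 autophagy genes (points, filled where called) in 3 genotypes, with the median of all tested genes in bins of about equal size (line). In WT the line falls steadily over the lengths of the autophagy genes and the points scatter around it. Ulk2 and Atg4c lie far below it and Atg2b far above it. In shPax6 and JNK3 KO the line is nearly flat over those lengths.

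The 5 ATG8 genes, whose proteins are the lipid-anchored coat of the autophagosome, held between 42.96% and 45.11% of the FPKM summed over all 36 genes in the PBS libraries and in both shPax6 NMDA libraries. That share was 54.07% and 55.53% in WT NMDA and 40.5% and 40.15% in JNK3 KO NMDA. In WT 3 of the 5 rose after NMDA and 0 fell (26% and 33.8% of all genes did), in shPax6 1 rose and 1 fell (19.1% and 11%), and in JNK3 KO 0 rose and 4 fell (4.33% and 6.1%). With the length correction Gabarap alone of the 5 was called higher in WT, and Gabarapl1 and Gabarapl2 were called lower. Of the JNK3 KO falls only that of Gabarapl1 was called under all 4 scalings. Map1lc3a (-0.39) and Gabarapl2 (-0.16) lost the call there with the length correction, and Map1lc3b (-0.25) and Gabarapl2 (-0.16) with quantile normalization.

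Gabarap (chr11:69991143-69994951, plus strand, GRCm38) encodes the founding GABARAP protein, which acts in autophagosome closure and fusion. It read 110.09 and 114.85 FPKM in WT PBS and 301.12 and 318.90 in WT NMDA, 120.47 and 116.98 in shPax6 PBS and 211.62 and 207.34 in shPax6 NMDA, and 136.20 and 146.50 in JNK3 KO PBS and 127.70 and 127.79 in JNK3 KO NMDA. Both NMDA libraries were thus far above both PBS libraries in WT, less far above in shPax6 and below them in JNK3 KO. The log2 difference was 1.46 (SE 0.05, limma adjusted p = 6.85e-08) in WT and 0.82 (SE 0.05, adjusted p = 8.21e-06) in shPax6, and -0.14 (adjusted p = 0.127) in JNK3 KO. With the length correction the WT value was 0.55 and the shPax6 value 0.57, both still called. The WT response exceeded that of JNK3 KO by 1.61 (adjusted p = 6.60e-07) and that of shPax6 by 0.64 (adjusted p = 0.000138), and the second difference turned to -0.02 with the length correction and was not called under TPM or quantile normalization.

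Map1lc3a (chr2:155276297-155278073, plus strand) encodes LC3A and, at 902 bases, is the shortest of the 36. Its FPKM were 90.75 and 101.46 in WT PBS and 205.59 and 228.81 in WT NMDA, 103.36 and 79.88 in shPax6 PBS and 72.85 and 71.92 in shPax6 NMDA, and 101.82 and 96.02 in JNK3 KO PBS and 71.75 and 64.90 in JNK3 KO NMDA. The NMDA libraries lay above PBS in WT and below it in both other genotypes, with no overlap. The WT difference was 1.18 (SE 0.12, adjusted p = 2.39e-05) but 0.13 and not called with the length correction. In uncorrected FPKM the median WT difference of 411 genes of about 927 bases was 1.16. The Map1lc3a difference was -0.33 (adjusted p = 0.0648) in shPax6, where the length correction gave -0.58 and a call, and -0.53 (adjusted p = 0.0219) in JNK3 KO. The JNK3 KO call was lost on leaving out any of the 4 JNK3 KO libraries (values from -0.61 to -0.46). The response of WT was higher than that of shPax6 by 1.503 (adjusted p = 0.000103) and than that of JNK3 KO by 1.71 (adjusted p = 3.24e-05), and both differences were called under all 4 scalings, the smallest at 0.72 and 0.53 with the length correction.

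Gabarapl1, which encodes an ATG8 protein abundant in neurons, read 177.37 and 179.65 FPKM in WT PBS and 181.73 and 185.83 in WT NMDA, 164.09 and 167.42 in shPax6 PBS and 130.59 and 130.74 in shPax6 NMDA, and 187.50 and 185.34 in JNK3 KO PBS and 143.81 and 145.13 in JNK3 KO NMDA. It fell by 0.34 in shPax6 (adjusted p = 0.000259) and by 0.37 in JNK3 KO (adjusted p = 0.000778), under every scaling tried, while its WT difference of 0.04 was not called (adjusted p = 0.396) and turned to -0.23 with the length correction. Of its exons 570 bases overlap the gene 1700101I11Rik on the other strand, and whether the counting used strand is not stated.

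Gabarapl2, a relative of Gabarapl1 also called GATE-16, read 160.21 and 168.32 FPKM in WT PBS against 212.17 and 209.07 in WT NMDA, 174.45 and 151.66 and then 152.28 and 146.64 in shPax6, and 170.86 and 171.94 and then 138.76 and 142.91 in JNK3 KO. The WT groups did not overlap, and the difference of 0.36 (adjusted p = 0.00112) was positive in FPKM and at the 75th percentile but -0.21 under TPM, -0.38 with quantile normalization and -0.38 with the length correction, so its direction in WT is set by the scaling. In JNK3 KO it fell by 0.28 (adjusted p = 0.0264), and that call was lost on leaving out any of the 4 JNK3 KO libraries (values from -0.30 to -0.26).

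Map1lc3b, which encodes LC3B, the usual marker of autophagosomes, was called neither in WT FPKM (0.06) nor there with the length correction (0.03), with 90.59 and 101.77 FPKM in PBS and 106.07 and 94.86 after NMDA, an overlap of the groups. It read 88.83 and 90.37 FPKM in shPax6 PBS and 112.20 and 100.63 in shPax6 NMDA, a difference of 0.25 just short of the threshold (adjusted p = 0.0505). JNK3 KO libraries went from 103.55 and 109.84 to 82.69 and 85.44 FPKM, a fall of 0.34 (adjusted p = 0.0304) that was lost on leaving out any of the 4 JNK3 KO libraries (values from -0.39 to -0.30). Its response in WT was 0.41 higher than in JNK3 KO (adjusted p = 0.0161), but -0.19 under TPM and -0.28 under quantile normalization. That call was also lost without WT PBS or WT NMDA replicate 1, JNK3 KO PBS replicate 2 or JNK3 KO NMDA replicate 1 (values from 0.32 to 0.38).

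**Figure D3:**
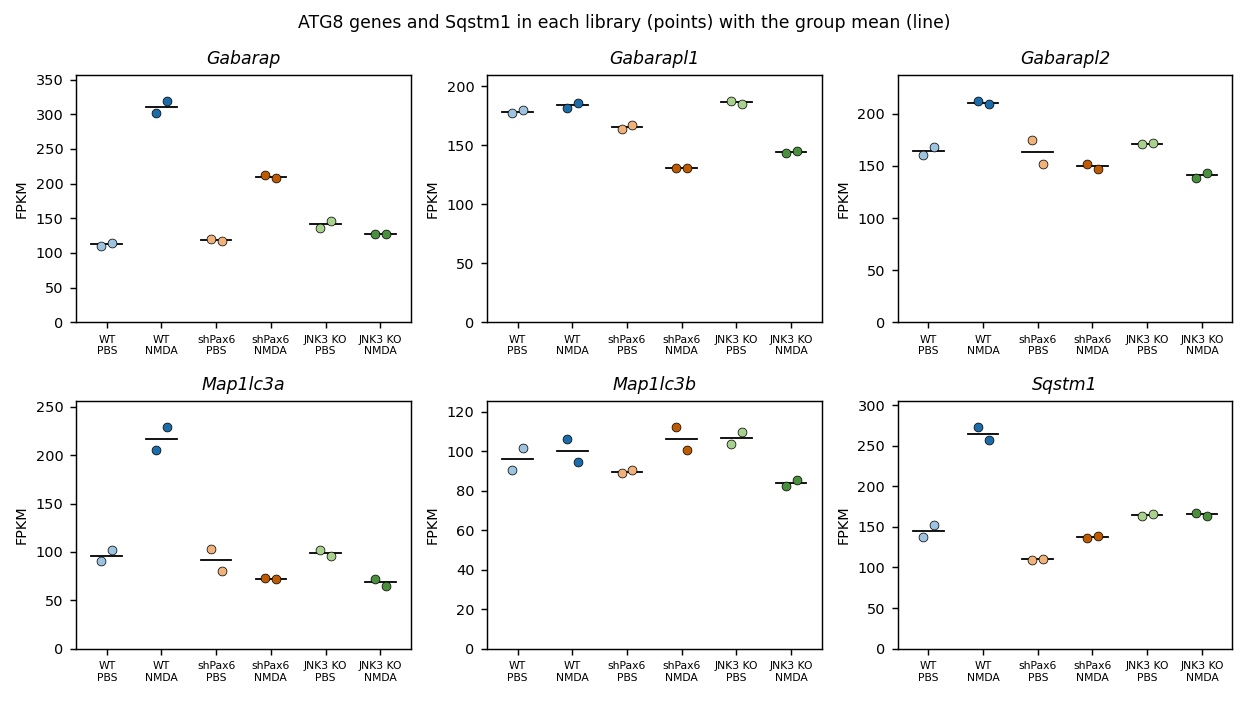
FPKM of the 5 ATG8 genes and of Sqstm1 in each of the 12 libraries, with a point per library and a line at the mean of the 2 libraries of a group. The WT NMDA points of Gabarap, Map1lc3a and Sqstm1 are the highest of all libraries, while Gabarapl1 is lowest in the NMDA libraries of shPax6 and JNK3 KO.

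The 3 cargo receptors went different ways. Sqstm1 (chr11:50199366-50210827, minus strand) encodes p62, which links ubiquitinated cargo to ATG8 proteins and is itself degraded by autophagy. It read 137.78 and 152.43 FPKM in WT PBS and 272.81 and 256.79 in WT NMDA, 109.75 and 110.51 in shPax6 PBS and 136.07 and 139.21 in shPax6 NMDA, and 163.82 and 165.38 in JNK3 KO PBS and 167.18 and 163.64 in JNK3 KO NMDA. NMDA libraries were higher in WT and shPax6, and in JNK3 KO the groups overlapped. The difference was 0.87 in WT (SE 0.06, adjusted p = 1.64e-06), 0.32 in shPax6 (SE 0.06, adjusted p = 0.00264) and 0.01 in JNK3 KO (adjusted p = 0.978). With the length correction the WT value was 0.65 and still called, with quantile normalization it was 0.11 and not called, and in shPax6 only TPM kept the call. The WT response was higher than that of JNK3 KO by 0.86 (adjusted p = 2.44e-05) and that of shPax6 by 0.55 (adjusted p = 0.000505), differences that became -0.00 and -0.08 with quantile normalization. Mrnip overlaps 580 bases of its exons on the other strand, at a mean of 7.99 FPKM.

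Nbr1, a receptor related to p62, read 100.33 and 102.03 FPKM in WT PBS and 61.85 and 63.00 in WT NMDA, a fall of 0.70 (adjusted p = 3.17e-05) that became 0.01 with the length correction. Its libraries lay between 90.47 and 107.74 FPKM in shPax6 and JNK3 KO, with differences of -0.12 and 0.00 that were not called. Optn encodes optineurin, a receptor for damaged mitochondria mutated in some hereditary glaucoma. It went from 48.81 and 48.94 to 32.74 and 32.06 FPKM in WT, from 40.39 and 49.89 to 37.23 and 39.10 in shPax6 and from 47.35 and 49.54 to 38.51 and 39.79 in JNK3 KO, so that NMDA was lower than PBS without overlap in each genotype. Only the WT fall of 0.59 passed the test (adjusted p = 0.000452), and it was called under all 4 scalings, at -0.41 with the length correction. The shPax6 and JNK3 KO differences were -0.23 (adjusted p = 0.0906) and -0.31 (adjusted p = 0.0723). The difference between WT and shPax6, -0.36 (adjusted p = 0.0488), was lost on leaving out any library but shPax6 PBS replicate 2 (values from -0.39 to -0.21) and was 0.01 at the 75th percentile.

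All 5 genes of the initiation complex changed in WT, 1 higher and 4 lower, where 59.8% of all genes changed. Ulk2 (chr11:61775649-61855073, minus strand), which encodes one of the related kinases that start autophagy, had the largest fall of the 36. It read 17.20 and 16.81 FPKM in WT PBS and 4.94 and 4.60 in WT NMDA, against 15.93 and 16.34 in shPax6 PBS and 13.90 and 14.69 in shPax6 NMDA, and 15.16 and 14.56 in JNK3 KO PBS and 14.14 and 14.00 in JNK3 KO NMDA. The WT NMDA libraries were the lowest by far. The differences were -1.81 (SE 0.09, adjusted p = 3.66e-07) in WT, -0.17 (adjusted p = 0.184) in shPax6 and -0.08 (adjusted p = 0.677) in JNK3 KO. The WT fall was -0.76 with the length correction and was called under all 4 scalings, as were its differences from shPax6, -1.64 (adjusted p = 1.57e-05), and from JNK3 KO, -1.74 (adjusted p = 6.60e-06).

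Ulk1 (chr5:110784488-110810097, minus strand), the better known kinase of the pair and a target of mTORC1 and AMPK, moved in opposite directions in WT and shPax6. Its FPKM were 27.46 and 31.51 in WT PBS and 16.45 and 15.46 in WT NMDA, 20.50 and 25.83 in shPax6 PBS and 34.23 and 37.47 in shPax6 NMDA, and 27.44 and 28.47 in JNK3 KO PBS and 23.28 and 24.57 in JNK3 KO NMDA. NMDA was below PBS in WT and JNK3 KO and above it in shPax6, with no overlap. The differences were -0.88 (SE 0.12, adjusted p = 0.000173) in WT, 0.64 (SE 0.12, adjusted p = 0.00374) in shPax6 and -0.22 (adjusted p = 0.295) in JNK3 KO. The shPax6 rise was called under all 4 scalings, from 0.49 at the 75th percentile to 0.59 with TPM or the length correction, whereas the WT fall was -0.15 and not called with the length correction. The WT response was lower than that of shPax6 by 1.51 on the log2 scale (-1.51, adjusted p = 0.000107) and was called under all 4 scalings, at -0.74 with the length correction. The difference from JNK3 KO, -0.66 (adjusted p = 0.00962), became 0.14 with that correction and was not called at the 75th percentile.

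Atg101 (chr15:101284272-101290945, plus strand) encodes the partner that stabilizes ATG13 in the kinase complex. It read 15.83 and 15.14 FPKM in WT PBS and 40.59 and 37.02 in WT NMDA, 20.10 and 19.37 in shPax6 PBS and 17.54 and 21.37 in shPax6 NMDA, and 17.47 and 16.34 in JNK3 KO PBS and 15.15 and 17.35 in JNK3 KO NMDA. It was high in the WT NMDA libraries alone, and the groups overlapped in both other genotypes. The WT rise was 1.32 (SE 0.12, adjusted p = 9.99e-06) and 0.60 with the length correction, and its differences from shPax6, 1.35 (adjusted p = 0.000171), and from JNK3 KO, 1.38 (adjusted p = 0.000105), were called under all 4 scalings. Rb1cc1, which encodes the scaffold FIP200, fell by 0.70 in WT (adjusted p = 0.000303) and by 0.41 in shPax6 (adjusted p = 0.0159), and Atg13, the adaptor of the kinase, fell by 0.57 in WT (adjusted p = 0.00145). The WT falls of both were -0.27 and -0.15 and not called with the length correction. The Rb1cc1 call in shPax6 held under all 4 scalings but was lost without shPax6 PBS replicate 1 or shPax6 NMDA replicate 1 (-0.35 and -0.31).

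Beclin 1, the regulatory subunit of the class III PI3-kinase complex, is the product of Becn1. Its gene read 52.78 and 54.86 FPKM in WT PBS and 59.45 and 52.29 in WT NMDA, 80.99 and 48.68 in shPax6 PBS and 51.67 and 54.90 in shPax6 NMDA, and 62.17 and 57.37 in JNK3 KO PBS and 47.89 and 52.61 in JNK3 KO NMDA. No difference was called, with values of 0.05, -0.24 and -0.25 (adjusted p = 0.846, 0.39 and 0.489), and shPax6 PBS replicate 1 stood high. Cntd1 shares 3104 exonic bases with Becn1 on the other strand. Of the other 4 genes of this role, Atg14, which directs the kinase to autophagosome sites, fell by 0.65 in WT (adjusted p = 0.00843) and Ambra1, a Beclin 1 partner, fell by 0.43 (adjusted p = 0.0198). Neither call held with the length correction, where Ambra1 read 0.60 and Atg14 -0.08. The Atg14 call was lost without WT NMDA replicate 2 (-0.54) and that of Ambra1 without WT NMDA replicate 1 or either WT PBS library (values from -0.45 to -0.38). Pik3c3, the catalytic subunit, and Uvrag, which serves later steps, had WT values of -0.27 (adjusted p = 0.15) and -0.17 (adjusted p = 0.638). Of the 5 genes of this role 2 were called in WT, both lower (33.8% of all genes were lower). None of the 5 was called in shPax6 or JNK3 KO by limma (30.2% and 10.4% of all genes were). Of the 5, 0 had an unadjusted p under 0.05 there.

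Wipi1 (chr11:109573331-109611967, minus strand) encodes a protein that binds the lipid made by the class III PI3-kinase. It was the one gene called in all 3 genotypes, and in opposite directions. It read 19.57 and 19.76 FPKM in WT PBS and 13.67 and 12.08 in WT NMDA, 19.46 and 18.75 in shPax6 PBS and 30.51 and 31.58 in shPax6 NMDA, and 16.29 and 15.55 in JNK3 KO PBS and 27.37 and 29.08 in JNK3 KO NMDA. The PBS levels of WT and shPax6 were thus close. Both JNK3 KO PBS libraries lay below them, a difference from WT PBS that was not called. The NMDA libraries of shPax6 and JNK3 KO lay above all others while those of WT lay below. The differences were -0.61 (SE 0.09, adjusted p = 0.000227) in WT, 0.70 (SE 0.09, adjusted p = 0.000372) in shPax6 and 0.82 (SE 0.09, adjusted p = 0.000665) in JNK3 KO. All 3 were called under all 4 scalings, at -0.45, 0.56 and 0.83 with the length correction. The WT response differed from that of shPax6 by -1.31 (adjusted p = 3.94e-05) and from that of JNK3 KO by -1.43 (adjusted p = 1.49e-05), again under all 4 scalings.

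Of the other 5 genes of lipid supply 1 was called in a response. Of all genes 59.8%, 30.2% and 10.4% were called in WT, shPax6 and JNK3 KO. Atg9a, a lipid scramblase on the vesicles that seed the membrane, fell by 0.75 in WT (adjusted p = 0.00118) but read -0.12 with the length correction. Its WT response differed from that of shPax6 by -0.61 (adjusted p = 0.0285) and from that of JNK3 KO by -0.57 (adjusted p = 0.0358), and each of these calls was lost without WT PBS replicate 1 or 2, WT NMDA replicate 2 or shPax6 NMDA replicate 1. The first was lost also without shPax6 PBS replicate 2 and the second without shPax6 NMDA replicate 2, JNK3 KO PBS replicate 1 or either JNK3 KO NMDA library (values from -0.61 to -0.42 and from -0.64 to -0.45). Wipi2, Atg2a, Atg2b and Atg9b were called in no response, with WT values between -0.41 and -0.05, but the first 3 were called higher in WT with the length correction, at 0.68, 0.74 and 1.08. Atg9b was the lowest of the 36, at a mean of 0.93 FPKM over the 12 libraries.

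Among the 11 conjugation genes 3 rose and 3 fell in WT (26% and 33.8% of all genes), 1 rose in shPax6 (19.1%) and 0 changed in JNK3 KO (10.4% of all genes were called) by limma, where none had an unadjusted p under 0.05. Atg4c (chr4:99193934-99259787, plus strand), one of the 4 ATG4 proteases that trim ATG8 proteins before and after they are attached to lipid, read 14.46 and 13.84 FPKM in WT PBS and 5.92 and 5.08 in WT NMDA, 19.93 and 20.74 in shPax6 PBS and 14.96 and 18.18 in shPax6 NMDA, and 15.88 and 14.26 in JNK3 KO PBS and 14.99 and 16.97 in JNK3 KO NMDA. The WT NMDA libraries were below every other library. The WT difference was -1.35 (SE 0.13, adjusted p = 1.88e-05) and -0.99 with the length correction, and it was lower than that of shPax6 by 1.05 (-1.05, adjusted p = 0.00141) and than that of JNK3 KO by 1.43 (-1.43, adjusted p = 0.000178), under all 4 scalings. The differences in shPax6 and JNK3 KO were -0.30 (adjusted p = 0.117) and 0.08 (adjusted p = 0.779).

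Atg4a, a protease that prefers the GABARAP branch, read 5.99 and 6.71 FPKM in WT PBS and 2.79 and 5.02 in WT NMDA, 5.06 and 3.80 in shPax6 PBS and 5.17 and 6.92 in shPax6 NMDA, and 6.80 and 5.58 in JNK3 KO PBS and 5.88 and 4.53 in JNK3 KO NMDA. WT NMDA replicate 1 lay far below replicate 2, and no response passed the test (WT -0.74, adjusted p = 0.0531). The difference between the WT and shPax6 responses, -1.18 (SE 0.41, adjusted p = 0.0403), was called in FPKM and under TPM but not under the 3 other scalings. It was lost on leaving out any library but WT NMDA replicate 2 and shPax6 PBS replicate 1 (values from -1.39 to -0.77). The annotation lists a pseudogene of it, Atg4a-ps, between which and Atg4a the counting could split reads.

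Atg4b, the most active of these proteases, fell by 0.47 in WT (adjusted p = 0.00904), was -0.40 and still called with the length correction, and rose by 0.40 in shPax6 (adjusted p = 0.0357). The fall was lost without WT PBS replicate 1 or WT NMDA replicate 1 (-0.36 and -0.35), and the rise held under none of the 4 scalings and was lost without shPax6 PBS replicate 1, either shPax6 NMDA library or any JNK3 KO library (values from 0.25 to 0.43). The difference of the 2 responses, -0.87 (adjusted p = 0.00287), was called under all 4 scalings. That from JNK3 KO, -0.60 (adjusted p = 0.0176), was lost without WT PBS replicate 1, WT NMDA replicate 1, JNK3 KO PBS replicate 2 or JNK3 KO NMDA replicate 2 (values from -0.57 to -0.48). Atg4d rose by 0.51 in WT (adjusted p = 0.000742) but was -0.06 under TPM and 0.09 with the length correction, and it shares 1405 exonic bases with Kri1 on the other strand.

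Atg3, the enzyme that transfers ATG8 proteins to the lipid, rose by 0.63 in WT (adjusted p = 0.000151) and by 0.53 with the length correction, was not called under TPM (0.06), and was the one gene over 2 kb that rose. Its WT response was higher than that of JNK3 KO by 0.70 (adjusted p = 0.000905) and that of shPax6 by 0.41 (adjusted p = 0.0171), and without WT PBS replicate 1 the second was 0.36 and not called. Under TPM neither was called, at 0.11 and -0.11. Atg16l2 rose by 0.67 in WT (adjusted p = 0.0372), a call lost under TPM and with the length correction (0.23) and also without either WT PBS library, WT NMDA replicate 2 or either JNK3 KO PBS library (values from 0.48 to 0.76). Atg12, the ubiquitin-like protein joined to ATG5, fell by 0.28 in WT (adjusted p = 0.0174), read 0.66 with the length correction and lost the call without WT PBS replicate 2 or WT NMDA replicate 1 (-0.26 and -0.22). Atg5, Atg7, Atg10 and Atg16l1, the core of the conjugation systems, were called in no response, with WT values from -0.18 to 0.19.

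Tfeb (chr17:47737030-47792419, plus strand) encodes the transcription factor TFEB. It read 4.70 and 6.38 FPKM in WT PBS and 10.65 and 12.55 in WT NMDA, 4.04 and 3.41 in shPax6 PBS and 6.87 and 4.88 in shPax6 NMDA, and 5.63 and 7.60 in JNK3 KO PBS and 6.05 and 4.86 in JNK3 KO NMDA. Both NMDA libraries were above both PBS libraries in WT and shPax6, and the groups overlapped in JNK3 KO. The difference was 1.06 (SE 0.24, adjusted p = 0.00418) in WT, 0.63 (adjusted p = 0.0822) in shPax6 and -0.27 (adjusted p = 0.574) in JNK3 KO. With the length correction the WT value was 0.84 and called, and under TPM it was 0.50 and not called. The WT response exceeded that of JNK3 KO by 1.33 (adjusted p = 0.0098), short of a call under TPM, and its difference from shPax6, 0.44, did not pass the test (adjusted p = 0.32).

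**Figure D4:**
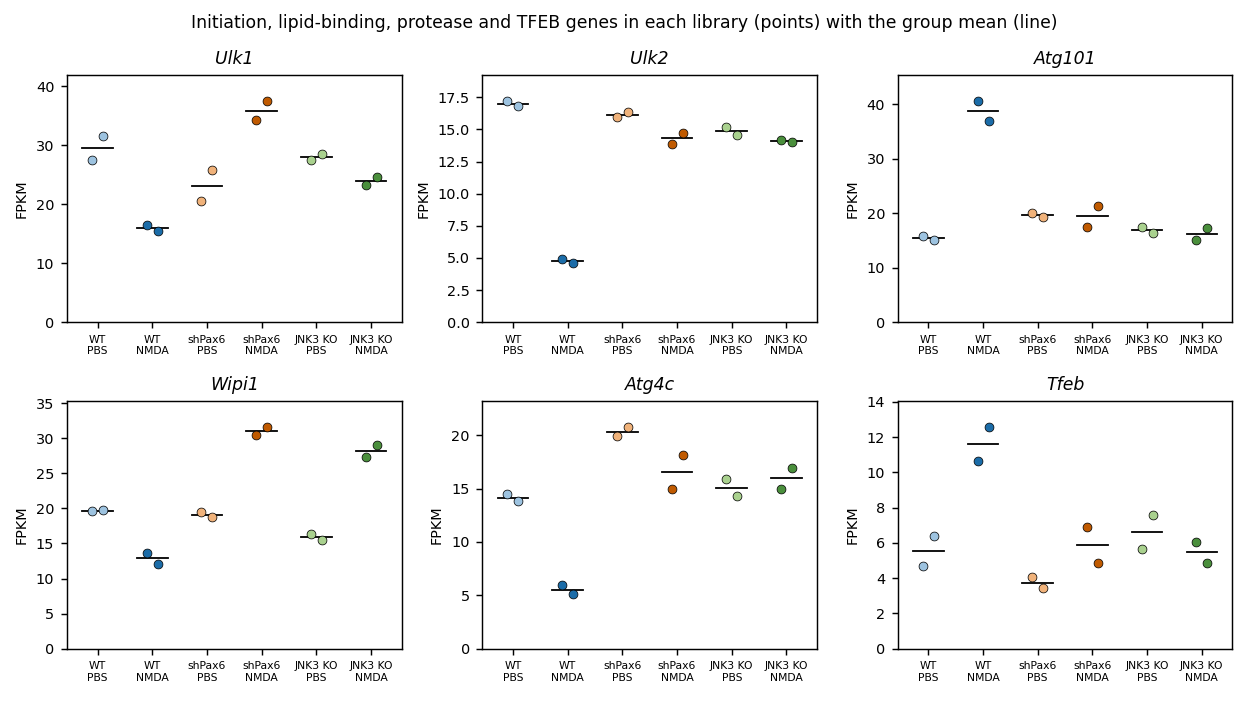
FPKM of Ulk1, Ulk2, Atg101, Wipi1, Atg4c and Tfeb in each of the 12 libraries, with a point per library and a line at the mean of the 2 libraries of a group. Ulk2 and Atg4c are lowest and Atg101 and Tfeb highest in the WT NMDA libraries, while Wipi1 and Ulk1 are highest in shPax6 NMDA.

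TFEB binds the E-box CACGTG, best within the longer palindrome TCACGTGA, in the promoters of its targets. RefSeq promoters of 250 bases before and 50 after a start site (GRCm38.p6) were held for 30 of the 36 genes, 35 promoters in all, and were searched on both strands. CACGTG was in 4 of the 35 (11.4%), beside 7.15% of 32851 promoters of the same length. TCACGTGA, which contains it, was in 1 (2.86%, beside 0.974%). The 4 stretches are shown in the sense of the gene with the E-box in capitals, because they are the only matches among these genes.
Atg3: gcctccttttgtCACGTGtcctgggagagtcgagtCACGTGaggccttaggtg
Atg5: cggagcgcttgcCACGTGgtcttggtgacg
Atg7: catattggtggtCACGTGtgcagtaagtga
Atg14: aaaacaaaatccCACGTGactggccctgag
They lie at chr16:45158723-45158775 (Atg3, plus strand), chr10:44268313-44268342 (Atg5, plus strand), chr6:114670952-114670981 (Atg7, plus strand) and chr14:47568418-47568447 (Atg14, minus strand). The stretches of Atg3 and Atg5 precede the annotated start of the gene, whereas those of Atg7 and Atg14 belong to start sites inside the gene. Atg3 alone held 2 E-boxes, the second within TCACGTGA. Of the 4 genes Atg3 rose and Atg14 fell in WT, and Atg5 and Atg7 were not called. The AP-1 motif TGACTCA, to which JUN proteins bind, was in 0 of the 35 promoters (5.2% of all promoters) and the CRE motif TGACGTCA in 2 (5.71%, beside 1.79%), those of Atg5 and Atg16l2. A match is a stretch of letters in the genome and not a measured binding site.

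Between genotypes under PBS few of the 36 genes differed. Markers of other cells did differ: the RGC markers summed to 168.36 and 167.72 FPKM in shPax6 PBS against 566.11 and 587.15 in WT PBS, with 6 of 10 called lower, and all 6 rod markers were called higher. In JNK3 KO PBS 0 of the RGC markers and 5 of the rod markers were called by limma, the latter all higher, and 1 RGC marker had an unadjusted p under 0.05. The part of these shifts in the values that follow was not tested. In shPax6 PBS against WT PBS 4 were called, 11.1% against 16.5% of all genes tested, with 3 higher (5.36% of all genes), 1 lower (11.2%) and none past 1 (4.43%). Atg16l1, which fixes where ATG8 proteins are attached, was 0.70 higher (adjusted p from limma over all genes), with 32.02 and 35.70 FPKM in WT and 57.57 and 52.32 in shPax6, and Sqstm1 was 0.40 lower (-0.40) at the values given above. Atg4c was 0.52 higher, a call lost without any of the 4 libraries (values from 0.49 to 0.55). Atg4d was 0.39 higher, lost without WT PBS replicate 2 or either shPax6 PBS library (values from 0.28 to 0.41). All 4 were called under all 4 scalings. In JNK3 KO PBS against WT PBS 1 gene was called, 2.78% against 1.51% of all genes: Gabarap, 0.33 higher (1.1% of all genes were called higher, 0.407% lower and 0.231% past 1). That call was lost under TPM, quantile normalization and the length correction and without either WT PBS library or any JNK3 KO library (values from 0.28 to 0.38). Both comparisons use the same WT PBS libraries.

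Single transcripts of some members differed in their response to NMDA. Of 257 listed transcripts 152 passed the filter, and in WT 18 were higher and 40 lower after NMDA, 38.2% against 35.2% of 49940 transcripts tested. The shares in shPax6 and JNK3 KO were 7.24% and 1.32%, against 8.34% and 1.31%. Sqstm1-202, the main transcript of Sqstm1 with 2037 bases, read 124.68 and 130.23 FPKM in WT PBS and 145.60 and 124.47 in WT NMDA, a difference of 0.08 that was not called (adjusted p = 0.428). Sqstm1-204, a protein-coding transcript of 953 bases, was listed at 92.40 and 118.04 FPKM in WT NMDA, at 0.52 in shPax6 NMDA replicate 2 and at 0 in the other 9 libraries. At the transcript level the WT rise of Sqstm1 thus lay in Sqstm1-204 and not in Sqstm1-202.

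The transcripts of Wipi1 and Ulk2 also split in WT. Wipi1-201 (3338 bases) went from 8.43 and 8.45 to 1.34 and 0.60 FPKM and fell by 3.09 (adjusted p = 0.000193), while Wipi1-202 (2050 bases) went from 10.11 and 10.29 to 12.33 and 11.48, a difference of 0.22 that was not called (adjusted p = 0.298). In shPax6 and JNK3 KO both transcripts read higher after NMDA, Wipi1-201 in JNK3 KO at 7.13 and 6.57 against 11.81 and 13.55 FPKM, although neither was called. Ulk2-202 (3151 bases) was at 6.11 and 4.17 FPKM in WT PBS and listed at 0 in both WT NMDA libraries, while the longer Ulk2-201 (5743 bases) fell by 1.22 (adjusted p = 0.00149). For Gabarap the shorter transcript Gabarap-202 (750 bases) rose by 2.01 in WT (adjusted p = 1.17e-05) and the longer Gabarap-201 (1351 bases) by 0.77 (adjusted p = 0.002), and in shPax6 they rose by 0.94 and 0.77. How reads were divided between transcripts of a gene was estimated by RSEM, so a transcript at 0 may be a result of that division.

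**Figure D5:**
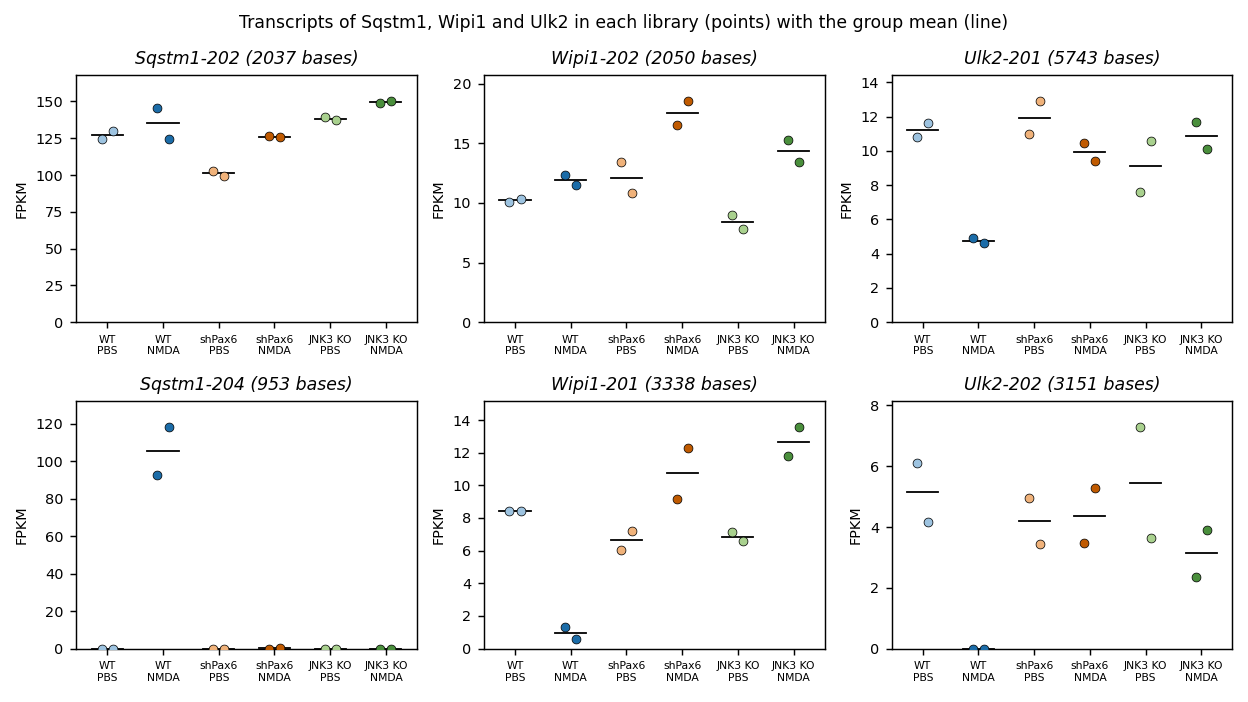
FPKM of 2 transcripts each of Sqstm1, Wipi1 and Ulk2 in each of the 12 libraries, with a point per library, a line at the mean of the 2 libraries of a group and the transcript length in the panel title. Sqstm1-204 is above 1 FPKM in the WT NMDA libraries alone, where Wipi1-201 and Ulk2-202 are at or near 0.

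Genes of neighbouring steps were read from lists of known members. The shares of all genes to read their counts against are 26% higher and 33.8% lower in WT, 19.1% and 11% in shPax6, and 4.33% and 6.1% in JNK3 KO. Of 27 lysosome genes 14 rose and 5 fell in WT (median log2 difference 0.285), 15 rose and 1 fell in shPax6 (median 0.522), and 2 rose and 4 fell in JNK3 KO (median 0.01). The WT balance depended on the scaling, with 6 higher and 15 lower under TPM and 8 higher and 12 lower under quantile normalization, while in shPax6 15 were higher under each scaling tried. Cd63, a lysosome and late endosome membrane protein, had the largest rise of the list in each genotype, by 2.24 in WT, 2.05 in shPax6 and 0.70 in JNK3 KO, from 119.04 and 127.37 to 582.54 and 583.12 FPKM in WT. Among the called genes the largest falls were those of proton pump subunits, Atp6v1a in WT (-1.68), Atp6v1b2 in shPax6 (-0.25) and Atp6v0c in JNK3 KO (-0.29). Cd63 and Atp6v1a read 1.35 and -0.90 in WT with the length correction, both called. Lysosome genes are also high in macrophages, whose summed markers were higher after NMDA in WT and shPax6 and lower in JNK3 KO, as given above, and the part this has was not tested.

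Of 12 genes of autophagosome fusion 3 rose and 6 fell in WT (26% and 33.8% of all genes), 4 rose in shPax6 (19.1%) and 0 changed in JNK3 KO (10.4% of all genes were called) by limma, where 3 had an unadjusted p under 0.05. Among the called genes Vamp8, a SNARE of the fusion step, rose most in WT (1.53) and in shPax6 (0.60), and Stx17, its partner on the autophagosome, fell most in WT (-1.34). Neither was called in WT with the length correction, where Vamp8 read 0.43 and Stx17 -0.43. Of 13 further cargo receptors and mitophagy genes 3 rose and 8 fell in WT, 5 rose and 1 fell in shPax6, and 1 rose and 2 fell in JNK3 KO. Phb2, an inner-membrane mitophagy receptor, rose most in WT (1.46) and Wdfy3, a very large adaptor for aggregates, fell most (-2.60), while Bnip3, a receptor on damaged mitochondria, rose by 0.73 in shPax6 and fell by 0.50 in JNK3 KO. In WT Bnip3 was lower after NMDA, at 103.45 and 103.96 FPKM in PBS and 48.99 and 44.94 in NMDA. Phb2 read 0.81 and Wdfy3 -0.72 in WT with the length correction, both called. Bnip3 and Fundc1 of the same list then read -1.635 and -1.872, both called and both below Wdfy3. Of 12 further formation genes 2 rose and 4 fell in WT, with Vmp1 at 1.00 and Epg5 at -1.77 the furthest, 4 rose in shPax6 led by Sh3glb1 (0.93), and 0 changed in JNK3 KO by limma, where 1 had an unadjusted p under 0.05. Vmp1 read 0.52 in WT with the length correction and was called, and Epg5 read -0.14 and was not.

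Upstream regulators, 20 genes of the mTORC1, AMPK and stress pathways, included 3 that rose and 12 that fell in WT, beside 26% and 33.8% of all genes. Tsc2, an inhibitor of mTORC1, rose most (1.40) and Rictor, a subunit of mTORC2, fell most (-2.02), and with the length correction they read 1.49 and -0.42, both called. In shPax6 3 rose and 1 fell, with Trib3, a stress-induced pseudokinase, at 1.54 and Mtor, the kinase itself, at -0.64. In JNK3 KO 0 changed by limma, and 3 had an unadjusted p under 0.05. The list medians in WT were -0.25 for fusion, -0.385 for cargo receptors and mitophagy, -0.055 for formation and -0.25 for upstream regulators, beside -0.09 for all genes. With the length correction the WT medians of fusion, cargo receptors and mitophagy, formation and upstream regulators were 0.28, -0.267, 0.136 and 0.306, that of the lysosome genes was 0.216, and 11 upstream regulators were then higher and 5 lower.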

How the data were processed

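The authors extracted total RNA, prepared poly(A) libraries and read paired ends of 101 bases. Per the labels' processing notes, STAR 2.7.1a, RSEM 1.3.3 and GRCm38.p6 were used, and the authors deposited FPKM per gene and per transcript, the only unit used here. FPKM are not counts, so depth and counting error behind a value are unknown and precision was judged from replicates (median absolute log2 difference of 0.11 to 0.25 within groups). No value column was left unmapped. The study's ChIP-seq was not used here.

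Kept were genes whose mean exceeded 1 FPKM in 1 or more groups, and log2(FPKM + 0.1) was fitted with limma 3.58.1 in R 4.3.3 (6 group means, empirical Bayes with an intensity trend, Benjamini-Hochberg over all genes kept). Fold changes on this scale understate the change of low genes. The 7 comparisons were 3 responses, 2 differences of responses and 2 genotype differences under PBS. Coordinates and lengths are from GENCODE M21 (55227 of 55487 genes matched). The scripts were tested on simulated data.

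Per-library values are given for the ATG8 genes, the cargo receptors, Tfeb, Ulk1, Becn1 and every other member called past an absolute log2 value of 1 in any comparison, and in each neighbouring list the largest called rise and fall of a response. Transcripts were picked after their values were seen. The members and lists were chosen with earlier results of these data known. Alternatives were other pseudocounts, filters and scalings, a length correction, a replicate block, no trend, the spread of the compared groups alone, and each library left out.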

Additional observations from a re-analysis of the deposited data

Results flagged for a closer look

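Several members responded differently to NMDA in different genotypes by a test of the difference itself (limma, adjusted p under 0.05) and by more than 1 on the log2 scale. Between WT and shPax6 the WT response was higher for Map1lc3a (1.503) and Atg101 (1.35) and lower for Ulk2 (-1.64), Ulk1 (-1.51), Wipi1 (-1.31), Atg4a (-1.18) and Atg4c (-1.05). Between WT and JNK3 KO it was higher for Map1lc3a (1.71), Gabarap (1.61), Atg101 (1.38) and Tfeb (1.33) and lower for Ulk2 (-1.74), Atg4c (-1.43) and Wipi1 (-1.43). Past the same limits lay 32% and 35.6% of all genes tested, and both sets of differences share the WT libraries, whose NMDA values follow transcript length. Groups of 2 libraries are too small for a test of outlying samples.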

How the results depend on the processing

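The number of members called stayed within 1.5 times its value under most alternatives for the WT response (22) and both differences of responses (18 and 19). In the shPax6 response it went from 7 (30.2% of all genes called) to 14 at the 75th percentile (29.9%) and with quantile normalization (30.1%). It was 12 with the length correction (28.9%) and 3 with the spread of the compared groups alone (5.93%). For the JNK3 KO response, 5 (10.4% of all genes called) became 3 with quantile normalization (10.4%) or the length correction (8.62%). It was 2 without the intensity trend (8.35%) or with the length correction and replicate block (7.57%). Of the PBS comparisons, the 4 calls of shPax6 (16.5% of all genes called) became 0 with the spread of the compared groups alone (5.39%). The 1 of JNK3 KO (1.51%) became 0 with that spread (0.0729%), TPM (1.01%), quantile normalization (0.814%) and no trend (0.212%). It was also 0 with the length correction, without (0.608%) or with (0.371%) the replicate block. Leaving out 1 library gave 19 to 23 calls in WT, 6 to 11 in shPax6, 2 to 6 in JNK3 KO, 13 to 18 and 16 to 22 in the differences from shPax6 and JNK3 KO, and 2 to 7 and 0 to 1 under PBS. The JNK3 KO response lost calls without any 1 of its 4 libraries, where the share of all genes called fell as well. The shPax6 response gained most calls without shPax6 PBS replicate 2, where the share of all genes called fell. Under PBS, shPax6 lost calls without WT PBS replicate 2 or shPax6 PBS replicate 1 and gained calls without either shPax6 NMDA library. The 1 call of JNK3 KO was lost without either WT PBS or any JNK3 KO library. In each of these PBS cases the share of all genes called moved the same way.

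Some signs turned. Under TPM, these were in the WT response Atg4d (-0.063), Atg16l1 (-0.50), Gabarapl1 (-0.53), Map1lc3b (-0.51), Gabarapl2 (-0.21) and Becn1 (-0.52), in the difference from shPax6 Atg3 (-0.11), Gabarapl1 (-0.14) and Gabarapl2 (-0.042), and in that from JNK3 KO Atg4d (-0.094), Gabarapl1 (-0.18) and Map1lc3b (-0.19). At the 75th percentile it was Optn in the difference from shPax6 (0.009). With quantile normalization they were in WT Gabarapl1 (-0.68), Map1lc3b (-0.53) and Gabarapl2 (-0.38), in the difference from shPax6 Sqstm1 (-0.077), Gabarapl1 (-0.19) and Gabarapl2 (-0.13), and in that from JNK3 KO Sqstm1 (-0.002), Gabarapl1 (-0.41), Map1lc3b (-0.28) and Gabarapl2 (-0.23). The length correction, alike with and without the replicate block, turned in WT Nbr1 (0.013), Atg2a (0.74), Wipi2 (0.68), Gabarapl1 (-0.23), Gabarapl2 (-0.38), Atg12 (0.66), Ambra1 (0.60) and Atg2b (1.08), in the difference from shPax6 Nbr1 (0.18), Gabarap (-0.022), Gabarapl2 (-0.021), Atg9a (0.092) and Ambra1 (0.47), and in that from JNK3 KO Atg4d (-0.014), Nbr1 (0.075), Ulk1 (0.14), Gabarapl2 (-0.22), Atg12 (0.60) and Atg9a (0.11). The cause of these turns was not tested. In the shPax6 and JNK3 KO responses no member turned its sign under an alternative that called it.

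The replicate block gave 22, 8 and 5 calls in the responses of WT, shPax6 and JNK3 KO, 17 and 20 in the differences and 4 and 1 under PBS. Deviations of libraries with the same number correlated between -0.10 and 0.09 across groups, so no deviation shared by number was seen. Each group gives a single such difference, so this cannot show whether the numbers pair the samples, and the labels do not say. With 2 libraries a group, unknown depth and WT NMDA values that follow length, the WT levels of short and long members are the least certain of those given.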
